A study of Mus musculus with 16 samples.

Results

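The genes described here encode the contractile apparatus of skeletal muscle: the motor and regulatory proteins of the sarcomere, the Z disc, and the calcium and energy systems that serve contraction. The set holds 33 genes, taken as every non-control probe on the array whose gene name is one of the 33 symbols, and these genes have 67 of the 56605 probes. Where a gene had several probes, the brightest with a value on every array stood for it. Of the members this set aside 1 brighter probe, for Myh4, which lacks a value on 1 array and is described with that gene. For a test, a probe had to be well above background, as called by the scanner software, on at least 4 of 16 arrays. In all, 30 of the 33 genes passed, among 28250 genes tested. The other 3 were Myh1, Mb and Myot. Levels are log2 fluorescence minus the 75th percentile of the same array, so a level of 0 lies at that percentile and a difference of 1 is 2-fold. A level describes 1 probe and is not set against that of another gene.

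The arrays measured RNA from the bone beneath the cartilage of the mouse medial tibia, in a surgical model of osteoarthritis. All mice were wild type C57BL6 males operated on at 10 to 12 weeks of age, on both knees. Destabilization of the medial meniscus (DMM) cut the ligament that ties the medial meniscus to the tibia, and the sham operation exposed that ligament without cutting it. Knees were collected 1 or 6 weeks later, which gave 4 groups of 4 mice: sham at 1 week, DMM at 1 week, sham at 6 weeks and DMM at 6 weeks. Each mouse gave 1 joint to 1 array. The tibial epiphyses were decalcified and cut into 10 µm cryosections, the bone was cut out by laser, and its sections were pooled per joint. Unoperated mice were not analysed here, so every value comes from an operated knee.

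In a sarcomere, myosin in the thick filament pulls on actin in the thin filament. Calcium released from the sarcoplasmic reticulum binds troponin, which moves tropomyosin off the myosin binding sites and so permits contraction. Fast and slow muscle fibres use different genes for most of these parts: Myh4, Myh1 and Myh2 encode fast myosin heavy chains, for example, and Myh7 the slow one. Bone has no muscle fibres of its own, although muscles and tendons attach to the tibia close to the joint, and several of these genes are also transcribed at some level in other cells.

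An array's 75th percentile stood at a fluorescence of 329 on the dimmest array and 873 on the brightest, and 65.2% to 79.5% of all probes exceeded the background limit. The dimmest was 6-week sham array 2, with the next at 471. That array held the highest level of 35.4% of all genes, and of 9 of the 30 tested members. The arrays lay on 2 slides of 8, each with 2 arrays of every group. All 10 osteoblast markers, such as Bglap and Col1a1, were well above background on every array. The number of arrays, 4 a group, limits the precision. Because the tissue was profiled in bulk, fewer cells of a type and less RNA per cell cannot be told apart.

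The probe sequences below belong to members described here, and they show what a value measures: a stretch of 60 bases of the transcript. Only the Ckm and Mylpf probes printed here stood for their genes in the levels and tests. The printed Tnnt3 and Myh4 probes are further probes of those genes, described below. That Myh4 probe did not pass the filter. They are given 5′ to 3′, with their place on the mouse assembly mm9 from the deposited scanner files. Where a probe lies within its gene (exon or UTR) was not analysed here. The first pair belongs to Tnnt3, fast troponin T, and the capitals mark 13 bases that the 2 probes share.
Tnnt3 probe A_52_P622418: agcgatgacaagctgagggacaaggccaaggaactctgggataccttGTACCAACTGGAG
Tnnt3 probe A_55_P2088375: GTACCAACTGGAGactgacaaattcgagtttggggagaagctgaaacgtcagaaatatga
Myh4 probe A_55_P2744675: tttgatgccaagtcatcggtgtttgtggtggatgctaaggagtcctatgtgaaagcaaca
Ckm probe A_51_P380807: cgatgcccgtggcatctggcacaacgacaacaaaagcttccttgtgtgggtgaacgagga
Mylpf probe A_52_P383572: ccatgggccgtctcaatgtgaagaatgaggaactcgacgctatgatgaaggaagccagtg
The first Tnnt3 probe lies at chr7:149698254-149698479 (plus strand). Its 60 bases are spread over 226 bases of genome, so it crosses at least 1 splice junction. The second Tnnt3 probe lies at chr7:149698467-149698526 (plus strand) without a gap. The Myh4 probe lies at chr11:67054219-67054278 (plus strand), also without a gap. The Ckm probe, for muscle creatine kinase, lies at chr7:20002222-20004829 (plus strand) and its bases are spread over 2608 bases of genome. The Mylpf probe, for the fast regulatory light chain of myosin, lies at chr7:134356749-134356985 (plus strand) over 237 bases. A probe that joins separate stretches of genome reads spliced RNA.

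Signal from these genes was measurable in most of the dissected bone samples, but not for all of them. Of the 33 members, 20 were well above background on all 16 arrays, 6 on 8 to 15 arrays, 4 on 4 or 5 arrays, 2 on 3 arrays and 1 on 0 arrays. Acta1, Mylpf, Tnnc2 and Atp2a1 were among those above it on all 16. At the low end, Myh4, the fastest myosin heavy chain, was well above background on 4 arrays by the probe that stood for it. Myoz2, a Z disc protein of slow fibres, was so on 4 arrays. Ckm and Mypn, which encodes the Z disc protein myopalladin, were so on 5 arrays each. Myh1 and Mb (myoglobin, the oxygen store of muscle) were so on 3 arrays each. Myot, for the Z disc protein myotilin, was so on none and has no usable level. Per array, between 21 and 30 of the 33 members were well above background. The 6-week sham array 3 had 30 and the 6-week DMM array 3 had 29, against 21 on the 1-week DMM array 4. Over all probes, 72.4%, 73.0% and 67.6% were well above background on these arrays.

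**Figure D1:**
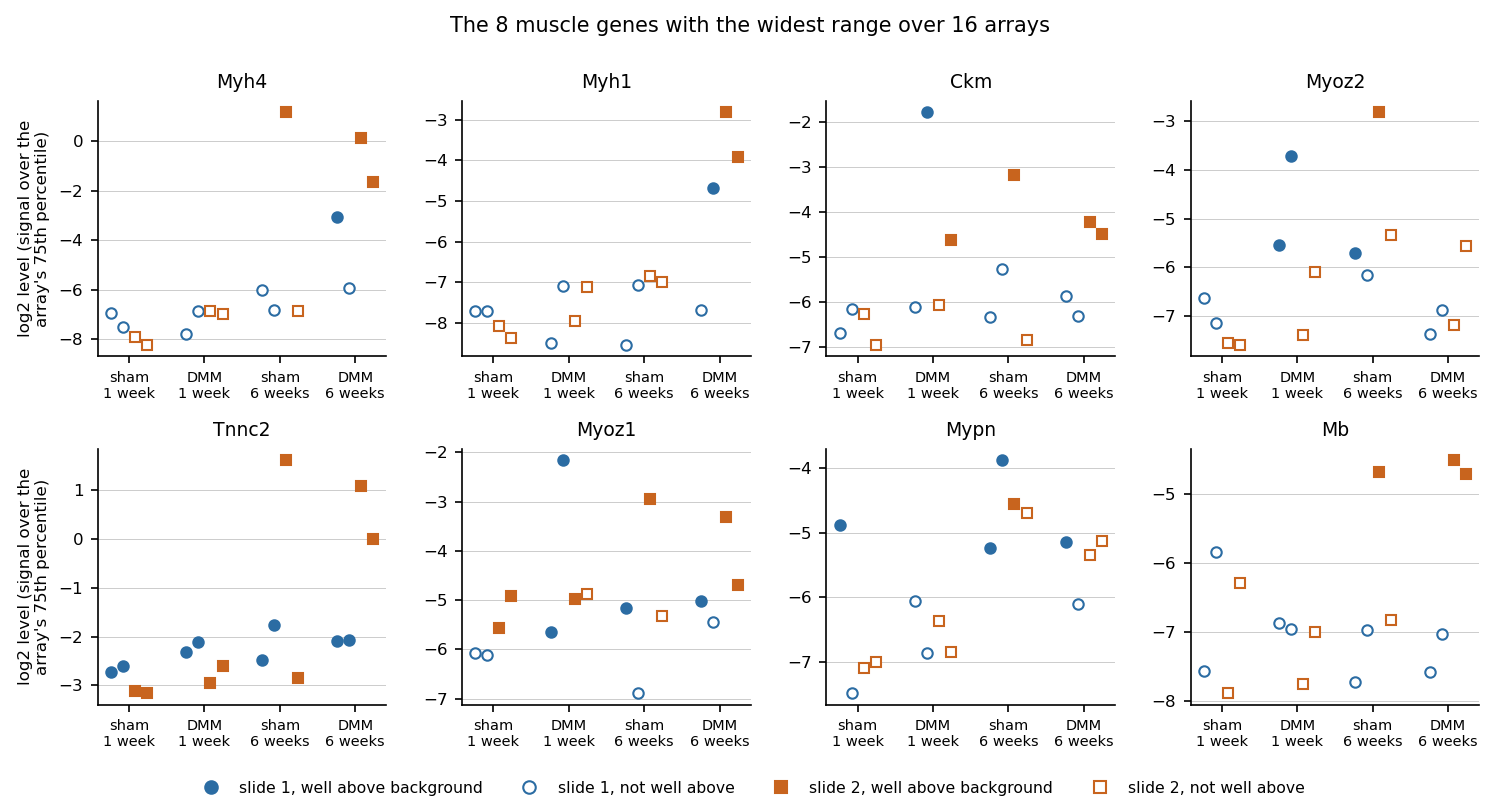
Level (log2 signal minus the array's 75th percentile) of the 8 members with the widest range, with 1 point per array in each group; circles are slide 1, squares are slide 2, and filled symbols are well above background. In Myh4 (probe A_51_P338072) and Tnnc2, 3 arrays of the 6-week groups on slide 2 stand above the other 13.

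Among the thick filament genes, Myh4 had the widest range of any member by the probe that stood for it, A_51_P338072. At 1 week its levels were -6.94, -7.51, -7.91 and -8.22 in the sham group and -7.79, -6.87, -6.87 and -6.99 in the DMM group. At 6 weeks they were -5.99, -6.83, 1.16 and -6.85 after sham surgery and -3.05, -5.93, 0.11 and -1.66 after DMM. None of the 8 values at 1 week was well above background, and 1 of the 4 sham and 3 of the 4 DMM values at 6 weeks were. Values not above background have no order among themselves, so this probe shows a signal on 4 arrays, all at 6 weeks. Each array's background limit was its lowest level called well above background, and lower levels in the dimmer group were raised to it. By these limits the 6-week DMM group was 6.89-fold brighter than the 1-week DMM group. That fold was 3.66 without DMM array 3 and 14.8 without DMM array 2. The 6-week sham group was 2.41-fold brighter than the 1-week sham group, and no such fold could be given without array 3. The limits are loose, since levels above them could still be not well above background. On the 6-week sham array 1 the limit was -7.14, and this probe at -5.99 was not called. The folds are therefore approximate and no strict lower bounds.

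The pattern is that of the probe and not of every Myh4 probe. A brighter one, A_55_P2744670, designed on a cDNA clone, has no value on the 1-week sham array 2 and was well above background on all 15 others. Its levels were -2.07, -3.02 and -2.73 in the 1-week sham group, -2.47, -1.60, -3.03 and -2.91 in the 1-week DMM group, -2.29, -0.76, -2.88 and -3.13 in the 6-week sham group, and -2.23, -2.29, -2.51 and -2.96 in the 6-week DMM group. These groups overlapped, and the arrays bright for the other probe were not the high ones. With this probe, fitted on 15 arrays, Myh4 differed by 0.17 ± 0.34 between 6 weeks and 1 week (limma adjusted p = 0.885). Signal for Myh4 was thus above background at 1 week by this probe and not by A_51_P338072.

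The other fast myosin heavy chains did not all follow that Myh4 probe. Myh1 was at -7.69, -4.67, -2.81 and -3.91 in the 6-week DMM group, with the last 3 well above background. Its levels were -8.54, -7.06, -6.85 and -7.00 in the 6-week sham group, -7.71, -7.70, -8.08 and -8.38 in the 1-week sham group, and -8.49, -7.08, -7.95 and -7.12 in the 1-week DMM group, none of them well above background. By the same background limits the 6-week DMM group was 1.92-fold brighter than the 6-week sham group for Myh1, again no strict lower bound. Myh1 was below the filter and therefore without a test. Leaving out 1 DMM array moved that fold to between 1.22 (without array 3) and 3.76 (without array 1). Myh1 stayed at background on the 6-week sham array 3, where Myh4 probe A_51_P338072 was brightest. Myh2, the heavy chain of the intermediate fast fibres, ranged from -5.78 to -3.77 and was well above background on 13 arrays. Slow Myh7 ranged from -4.17 to -2.21 and was so on all 16.

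The myosin light chains and myosin binding proteins steady and regulate the motor heads. By the probes that stood for them, they varied less than these Myh4 and Myh1 probes. Another Myl1 probe, A_51_P416858, had a range of 6.11 and is described below. Mylpf was at -1.87, -2.01, -1.27 and -1.40 in the 1-week sham group and at -1.50, -2.21, -0.69 and -1.29 in the 1-week DMM group. At 6 weeks it was at -0.45, -1.68, 0.10 and -0.25 after sham surgery and at 0.03, -0.23, -0.50 and 0.00 after DMM. The 6-week values were the higher ones, apart from -1.68 on the dimmest array, and the ranges of the 2 times overlapped. Myl1, the fast essential light chain, ranged from -1.56 to 0.74. The slow and cardiac light chains Myl2 and Myl3 ranged from -2.01 to -0.68 and from -5.45 to -2.65. Mybpc1 and Mybpc2, the slow and the fast myosin binding protein C, ranged from -2.72 to -0.57 and from -4.97 to -2.51.

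In the thin filament, Tnnc2 (fast troponin C, the calcium sensor) was the member that showed the pattern of Myh4 with every value above background. Its levels at 1 week were -2.71, -2.61, -3.11 and -3.15 after sham surgery and -2.31, -2.11, -2.95 and -2.60 after DMM. At 6 weeks they were -2.49, -1.75, 1.61 and -2.86 after sham surgery and -2.10, -2.07, 1.10 and 0.00 after DMM. The levels of 1.61, 1.10 and 0.00 stand clear of the other 13, of which the highest was -1.75. Slow troponin C, Tnnc1, ranged from -6.92 to -4.39 and was highest on the 1-week DMM array 2. Troponin I, which blocks the actin site at rest, was represented by fast Tnni2 with a range from 0.09 to 1.99 and slow Tnni1 with a range from -0.09 to 1.40. Acta1, skeletal muscle actin, ranged from -4.38 to -2.47, and nebulin (Neb), which sets thin filament length, from -5.32 to -2.55.

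The tropomyosins are also made in many non-muscle cells. Tpm1 was at 2.92, 3.16, 2.77 and 2.50 in the 1-week sham group, 2.98, 2.86, 2.57 and 2.81 in the 1-week DMM group, 2.12, 3.40, 2.29 and 2.48 in the 6-week sham group, and 1.96, 1.91, 2.86 and 2.62 in the 6-week DMM group. Tpm2 was at 0.55, 0.86, 1.06 and 1.00 in the 1-week sham group, 0.77, 0.00, 0.95 and 0.64 in the 1-week DMM group, 0.89, 0.75, 0.52 and 1.16 in the 6-week sham group, and 1.09, 0.98, 1.01 and 0.98 in the 6-week DMM group. The groups overlapped for both genes, and neither was highest on the arrays where Myh4 and Tnnc2 were.

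At the Z disc, where thin filaments of neighbouring sarcomeres are anchored, the calsarcins Myoz1 (fast) and Myoz2 (slow) ranged widely. Myoz1 was at -6.07, -6.12, -5.57 and -4.92 in the 1-week sham group, -5.65, -2.16, -4.98 and -4.88 in the 1-week DMM group, -5.16, -6.88, -2.94 and -5.33 in the 6-week sham group, and -5.01, -5.43, -3.30 and -4.69 in the 6-week DMM group. Myoz2 was at -6.62, -7.15, -7.54 and -7.58 in the 1-week sham group, -5.54, -3.71, -7.38 and -6.10 in the 1-week DMM group, -5.70, -6.15, -2.82 and -5.33 in the 6-week sham group, and -7.36, -6.87, -7.19 and -5.56 in the 6-week DMM group. For both genes the 1-week DMM array 2 and the 6-week sham array 3 held the 2 highest values, and sham and DMM overlapped at both times. Mypn was at -4.87, -7.48, -7.09 and -7.01 in the 1-week sham group and -6.05, -6.86, -6.37 and -6.85 in the 1-week DMM group. It was at -5.24, -3.88, -4.56 and -4.69 in the 6-week sham group and -5.15, -6.10, -5.35 and -5.12 in the 6-week DMM group. The 6-week sham values of Mypn lay above all 1-week values except the -4.87 of 1-week sham array 1.

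The giant spring protein titin (Ttn) was at -2.39, -2.17, -2.20 and -2.15 in the 1-week sham group, -2.77, -1.62, -2.58 and -2.64 in the 1-week DMM group, -2.62, -0.99, -2.26 and -1.68 in the 6-week sham group, and -2.69, -2.40, -1.88 and -2.06 in the 6-week DMM group. All 4 groups overlapped. The actin cross-linkers Actn2 and Actn3, the second a protein of fast fibres, ranged from -4.42 to -2.28 and from -4.88 to -2.92.

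Among the calcium and energy genes, Ckm regenerates ATP from phosphocreatine. It was at -6.70, -6.15, -6.26 and -6.95 in the 1-week sham group, -6.10, -1.79, -6.07 and -4.62 in the 1-week DMM group, -6.32, -5.26, -3.18 and -6.83 in the 6-week sham group, and -5.87, -6.31, -4.22 and -4.48 in the 6-week DMM group. Its brightest array was thus the 1-week DMM array 2, where Myh4 probe A_51_P338072 was at background. Mb was at -7.57, -5.84, -7.89 and -6.29 in the 1-week sham group, -6.87, -6.95, -7.76 and -7.00 in the 1-week DMM group, -7.73, -6.97, -4.68 and -6.82 in the 6-week sham group, and -7.58, -7.03, -4.51 and -4.70 in the 6-week DMM group. The values of -4.68, -4.51 and -4.70 were the only ones well above background.

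Casq1, which stores calcium in the reticulum, was at -0.16, -0.04, -0.04 and 0.06 in the 1-week sham group, -0.59, 1.28, -0.46 and -0.32 in the 1-week DMM group, -0.47, 2.21, -0.47 and -0.89 in the 6-week sham group, and -0.96, 0.40, -0.15 and -0.02 in the 6-week DMM group. It was high on the 1-week DMM array 2 and the 6-week sham array 2, and not on the arrays that were high in Tnnc2. Pvalb, the calcium buffer parvalbumin of fast fibres, ranged from -1.59 to 0.98. It was highest on the 6-week sham array 3, at 0.65 and 0.03 on the 6-week DMM arrays 3 and 4, and at 0.82 on the dim 6-week sham array 2. The release channel Ryr1 ranged from -0.65 to 0.15 and the calcium pump Atp2a1 from -1.64 to -0.52.

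**Figure D2:**
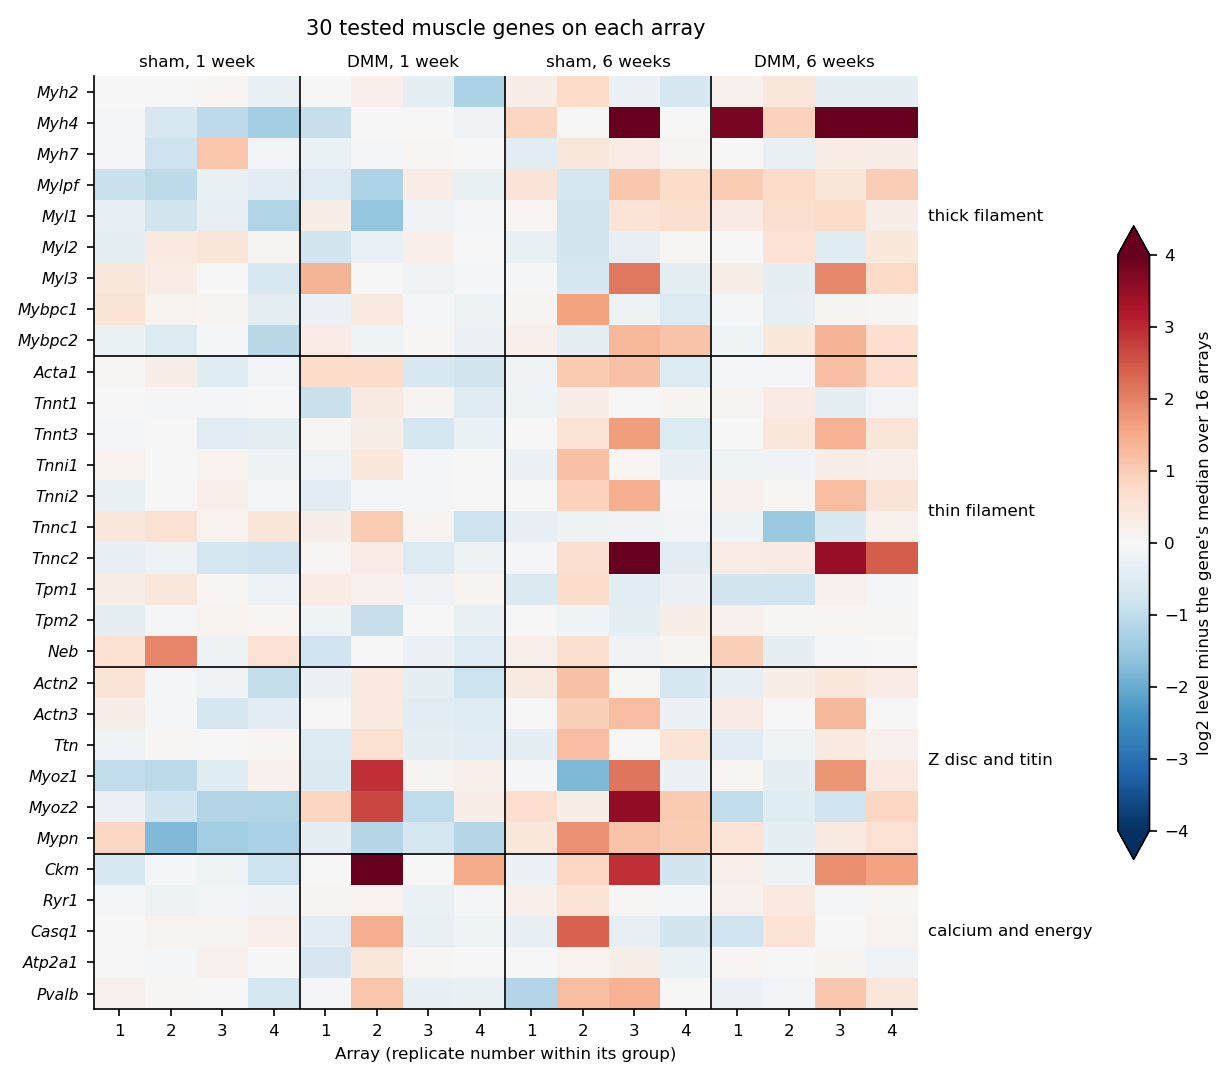
Level of each of the 30 tested members on each of the 16 arrays, minus that gene's median over the arrays, on a log2 colour scale that stops at 4 above and below. The 6-week sham array 3 and the 6-week DMM arrays 3 and 4 are bright for Myh4 and Tnnc2, while the 1-week DMM array 2 is bright for Ckm and Myoz1.

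The 6-week sham array 3, the 6-week DMM array 3 and the 6-week DMM array 4 therefore stand apart from the other 13, and all 3 lie on the second slide. They were chosen after their values were seen, and for the levels of members such as Myh4 and Tnnc2. What follows describes the 3 arrays without a test, and counts of members on them follow in part from that choice. Of 43268 tested probes, 3 were higher on each of these 3 arrays than on all 13 others by more than 1 on the log2 scale. Those 3 probes were for Tnnt3, Tnnc2 and Myh4. The Tnnt3 and Myh4 probes were well above background on only 5 and 4 arrays, these 3 arrays among them. Both probes thus passed the filter through the arrays described. All 3 arrays were the highest of the 16 for 68 of the 43268 probes (0.157%), for 5 of the 49 member probes (10.2%) and for 2 of 90 probes of other muscle genes (2.22%). They are 1 sham and 2 DMM arrays, so the signal was present after both operations.

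The 3 arrays did not bear the whole contractile set in step. The 6-week sham array 3 was the highest array for 8 of the 30 tested members, against 2.58% of all genes. The 6-week DMM array 3 was so for 4 members and 2.3% of all genes, and the 6-week DMM array 4 for 0 members and 2.22%. The 1-week DMM array 2 was the highest for 5 members and 6.12% of all genes. The summed level of the 8 adipocyte markers (linear, in multiples of each array's 75th percentile) was 140, 69.5 and 46.0 on the 3 arrays and between 16.1 and 93.9 on the others, and the part of fat tissue in these results was not tested. Whether muscle fibres beside the bone were taken with it on some arrays was not tested.

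At 6 weeks compared with 1 week, over both operations, more contractile genes were higher than lower, and Mylpf and Mypn passed the test. Mylpf was measured on every array, whereas Mypn was mostly not above background. The question is how these genes differ with time after surgery; the mice at 6 weeks were also older by the same interval. Mypn was 1.56 ± 0.33 (SE) higher on the log2 scale, with means of -4.59 ± 0.56 (SD, n = 4) in sham and -5.43 ± 0.46 in DMM at 6 weeks against -6.61 ± 1.18 and -6.53 ± 0.39 at 1 week. Its limma adjusted p was 0.0443, and the difference was 1.22 within the first slide and 1.90 within the second. Mypn was well above background on only 5 arrays, 4 of them at 6 weeks and 0 in the 1-week DMM group, so it passed the filter through the time at which it is higher. With another background correction (normexp) its difference was 0.39 and did not pass. Mylpf was 1.16 ± 0.26 higher, with means of -0.57 ± 0.77 and -0.18 ± 0.24 at 6 weeks against -1.64 ± 0.36 and -1.42 ± 0.63 at 1 week. Its limma adjusted p was 0.0487, and the difference was 1.32 and 1.00 within the slides. Over all genes tested, 247 of 28250 passed the same threshold (0.874%), and 181 of them were higher at 6 weeks (0.641%). The members called were 2 of 30 (6.67%). Both calls lie just inside the threshold of 0.05. With each array left out in turn, Mypn lost its call in 12 of 16 fits (limma adjusted p up to 0.115) and Mylpf in 12 of 16 (up to 0.126).

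Apart from those 2 genes no member passed. For Myh4 the fitted difference of probe A_51_P338072 was 3.76 ± 1.05, with a limma adjusted p of 0.0912. That difference was 1.83 on the first slide and 5.69 on the second. It is no measured size, since all 8 values at 1 week and 4 of the 8 at 6 weeks were not above background and the probe passed the filter through 6-week arrays only. The brighter probe gave 0.17, as above. Myl1 was 0.82 ± 0.26 higher (limma adjusted p = 0.125) and Mybpc2 0.83 ± 0.27 higher (limma adjusted p = 0.130). Tnnc2, with the clear signal on 3 arrays, differed by 1.63 ± 0.59 (limma adjusted p = 0.181), by 0.34 within the first slide and by 2.92 within the second.

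**Figure D3:**
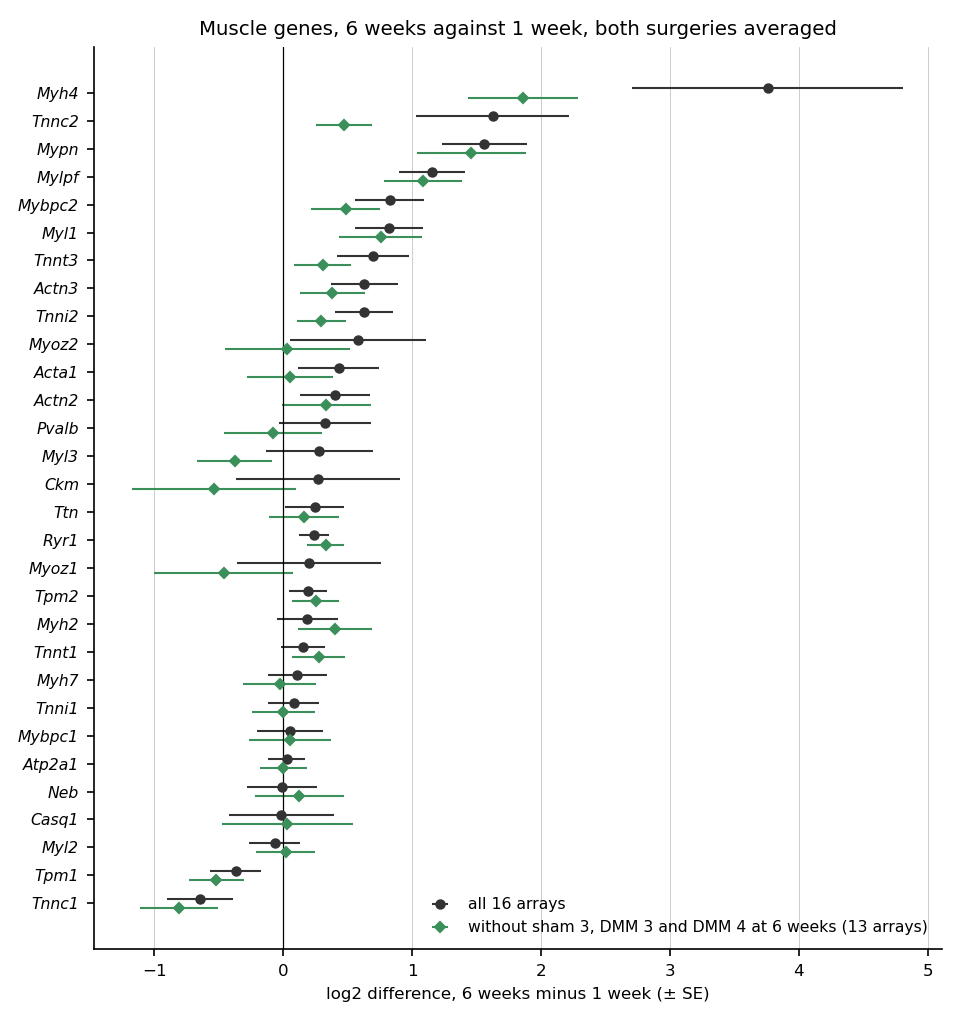
Difference between 6 weeks and 1 week (log2, both operations averaged) for the 30 tested members, with the standard error as bars, from all 16 arrays and from the 13 arrays left after removing the 3 that stand apart. Mypn and Mylpf differ by 1.46 and 1.08 with 13 arrays but no longer pass (limma adjusted p = 0.132 and 0.118), while Myh4 goes from 3.76 to 1.86 and Tnnc2 from 1.63 to 0.47.

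By role, 8 of 9 tested thick filament genes were higher at 6 weeks, with a median difference of 0.28. The same held for 7 of 10 thin filament genes (median 0.17), for 6 of 6 Z disc genes and titin (0.49), and for 4 of 5 calcium and energy genes (0.24). By fibre type, 12 of 13 genes of fast fibres were higher (median 0.63) and 6 of 8 of slow fibres (median 0.10). Genes of both or other fibres were higher in 7 of 9 cases (median 0.24). In all, 25 of 30 members were higher with a median of 0.26, beside 15721 of 28250 genes (55.6%) and a median of 0.04 over all genes. The counts rest partly on the filter: Myh4, Myoz2, Ckm and Mypn entered through only 4 or 5 arrays. Whether fast and slow genes differ from each other was not tested. The marker lists of other tissues leaned in different directions in the same comparison: 7 of 10 chondrocyte markers were higher at 6 weeks (median 0.99), 8 of 8 erythroid (1.21, with 1 past the threshold) and 7 of 8 adipocyte (0.45). Of 10 osteoblast markers 2 were higher (median -0.48), and of 6 tendon and ligament markers 1 was (median -0.61, with Col12a1 past the threshold and lower). Their part in the members' differences was not tested.

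Without the 3 arrays that stand apart, neither Mypn (limma adjusted p = 0.132) nor Mylpf (limma adjusted p = 0.118) passed, and 138 of 28250 genes did (0.488%). The median over the members was then 0.14, with 23 of 30 higher. Among genes of fast fibres 11 of 13 were higher (median 0.38), and among slow ones 5 of 8 (median 0.01). Leaving out only the dim 6-week sham array 2 instead gave 5 members past the threshold, all higher. They were Mypn (1.44, limma adjusted p = 0.0321), Mylpf (1.34, 0.0229), Mybpc2 (0.98, 0.0360), Myl1 (0.96, 0.0382) and Myh4 (4.12, 0.0440). That fit called 1502 of 28250 genes (5.32%).

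DMM against sham surgery at 1 week was the first comparison of the disease model. No member passed: 0 of 30, as did 0 of all 28250 genes (0%) in limma, while 273 genes and 1 member (Neb) had an unadjusted p under 0.05. Of the 30 members, 17 were higher after DMM and the median difference was 0.03, against 0.00 over all genes. Neb was at -3.92, -2.55, -4.71 and -3.95 after sham surgery and at -5.32, -4.53, -4.76 and -5.02 after DMM, a difference of -1.13 ± 0.39 (limma adjusted p = 1). The sham values tended to be the higher ones, but the groups overlapped. For Ckm the difference was 1.87 ± 0.90 (limma adjusted p = 1), with 2 DMM values and no sham value well above background. By the background limits of the sham arrays, which give no strict lower bound, the DMM group was 2.36-fold brighter. Without DMM array 2 it was 1.22-fold brighter, and the fitted difference was 0.91. Ckm was the only member whose groups did not overlap at 1 week, as 310 of 28250 genes (1.1%) did not. Most of its values were not above background and have no order. The next smallest unadjusted p-values were those of Myoz2 (1.54 ± 0.74), Myoz1 (1.25 ± 0.79) and Tpm2 (-0.28 ± 0.21), each with a limma adjusted p of 1. The array with the highest Ckm, Myoz1 and Myoz2 of the 1-week DMM group was array 2. No sham value of Myoz2 was well above background at 1 week, so its difference is no measured size.

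At 6 weeks the members were again without a call between DMM and sham, with 0 of 30 and 0 of 28250 genes (0%) past the threshold in limma. An unadjusted p under 0.05 was found for 220 genes and 1 member (Myoz2). Of the 30 members, 11 were higher after DMM, and the median difference was -0.04 against -0.02 over all genes. The 5 members with the smallest unadjusted p had a limma adjusted p of 0.9995. They were Myoz2 (-1.75 ± 0.74), Mypn (-0.84 ± 0.47), Myl2 (0.45 ± 0.28), Myh4 (2.00 ± 1.49) and Ttn (-0.37 ± 0.33). No DMM value of Myoz2 was well above background at 6 weeks, so its difference is no measured size. No member separated the groups without overlap, while 141 of 28250 genes did (0.499%). The difference of Myh4 is within its spread, since both groups held arrays with and without signal of its probe, and the brighter probe gave -0.23 ± 0.46.

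**Figure D4:**
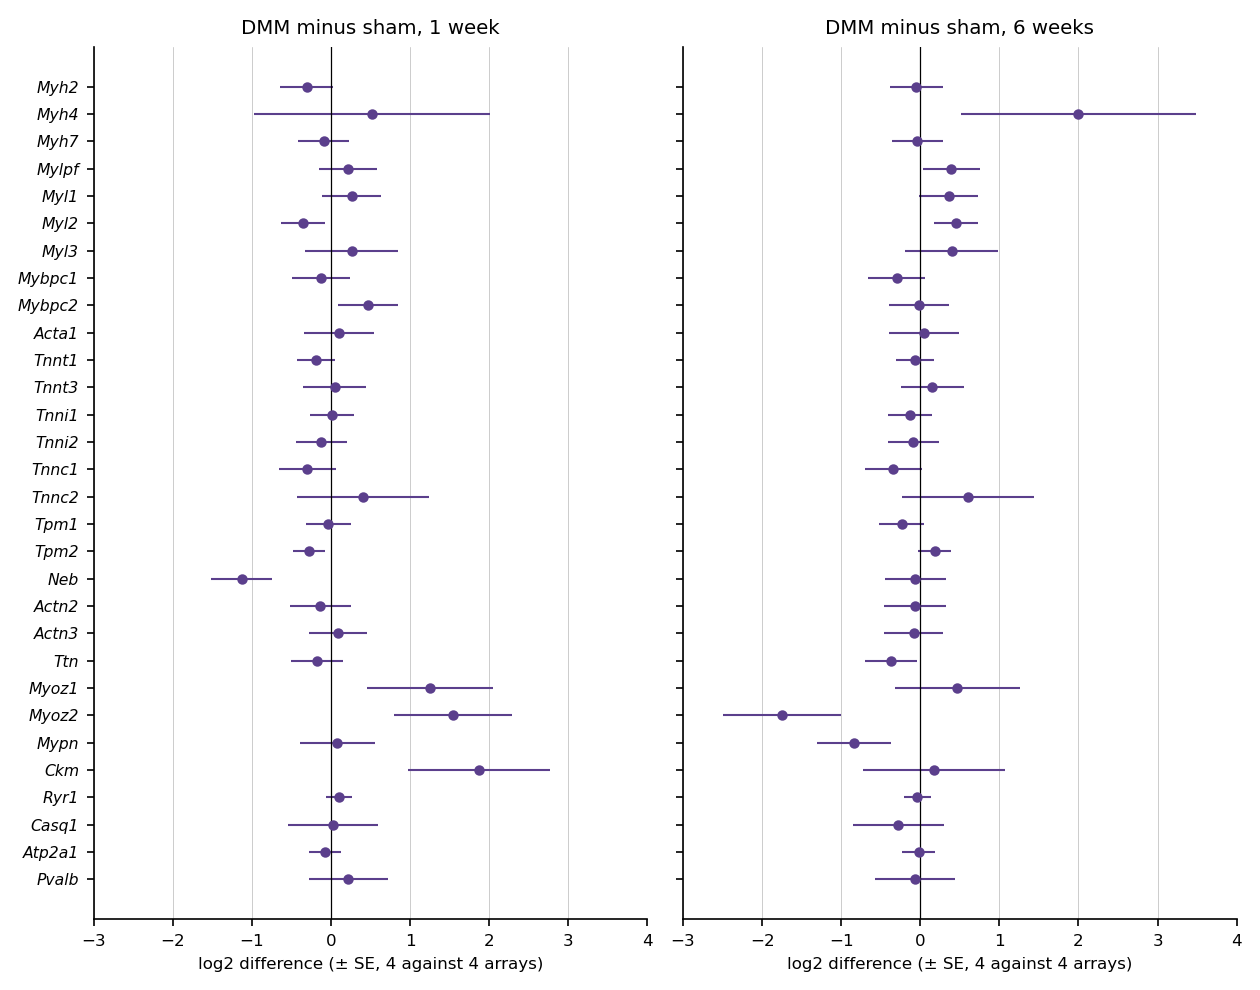
Difference between DMM and sham (log2) for the 30 tested members at 1 week and at 6 weeks, with the standard error as bars. The bar is widest for Myh4, 1.49 at either time, and no gene passed the threshold at either time.

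Whether the effect of DMM differed between the 2 times was tested as the difference of the 2 differences. Again 0 of 30 members and 0 of 28250 genes (0%) passed in limma, with 193 genes and 1 member (Myoz2) at an unadjusted p under 0.05. Myoz2 had the smallest p among the members: its difference between DMM and sham was lower at 6 weeks than at 1 week (-3.29 ± 1.05). That is no measured size, since no Myoz2 value was well above background in the 1-week sham or the 6-week DMM group. The others were Myl2 (0.81 ± 0.40), Neb (1.06 ± 0.54), Tpm2 (0.46 ± 0.29) and Mypn (-0.92 ± 0.66), all 5 with a limma adjusted p of 1. With both times averaged, 0 of 30 members and 0 of 28250 genes (0%) passed in limma, with 265 genes and 1 member (Neb) at an unadjusted p under 0.05. The smallest were Neb (-0.60 ± 0.27), Ckm (1.02 ± 0.63), Myoz1 (0.86 ± 0.56), Tnnc1 (-0.32 ± 0.26) and Myh4 (1.26 ± 1.05, or -0.06 with the brighter probe). All 5 had a limma adjusted p of 0.9999.

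**Figure D5:**
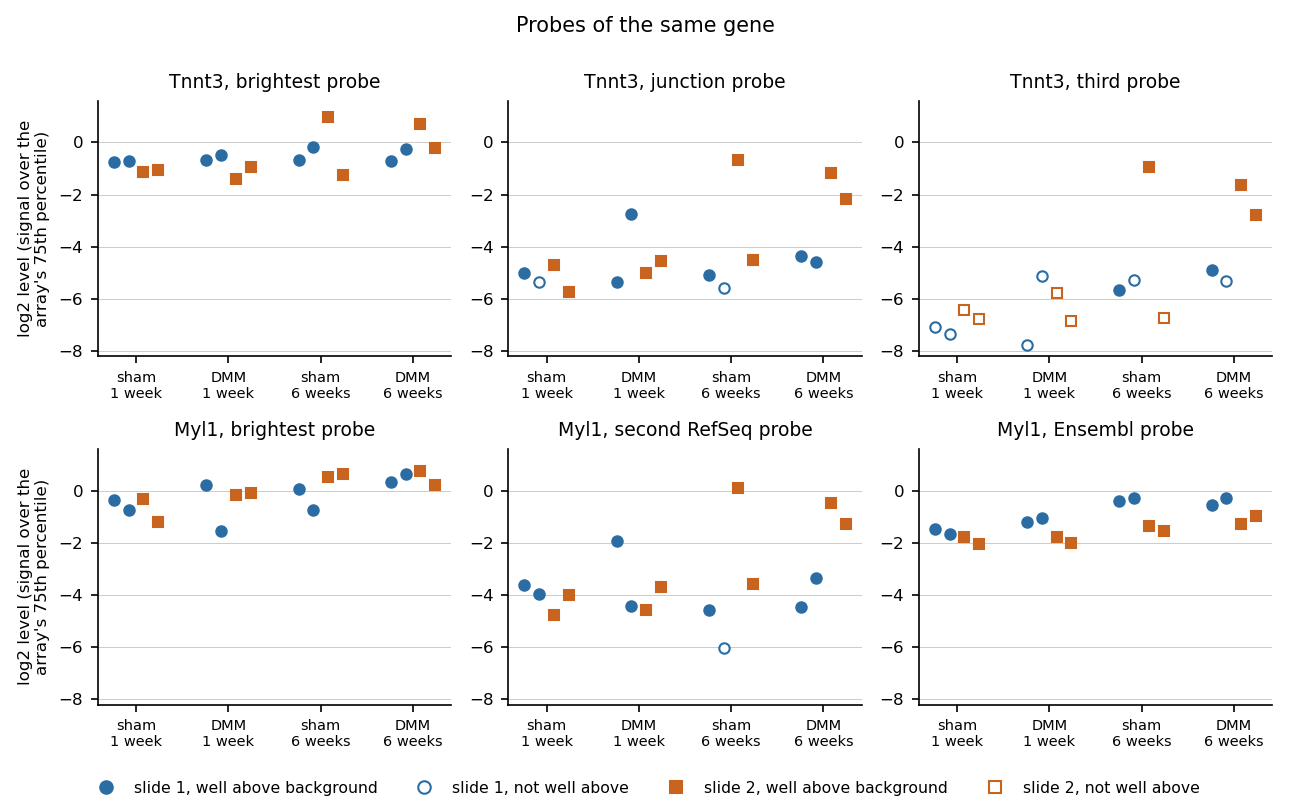
Levels of 3 probes of Tnnt3 and 3 probes of Myl1 on the 16 arrays, in log2 signal minus the array's 75th percentile; each probe is to be read against itself. For both genes the brightest probe has a narrower range (2.39 for Tnnt3, 2.29 for Myl1) than a probe that is highest on the 3 arrays that stand apart. Those are A_55_P2088375 for Tnnt3 (6.81) and A_51_P416858 for Myl1 (6.11). The range of this Tnnt3 probe is no measured size, since it was well above background on only 5 arrays.

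Different probes of a gene did not always tell the same story, and 16 of the 33 members have more than 1 probe. Fast troponin T (Tnnt3) shows it best. Its brightest probe, A_66_P110621, was at 0.98 on the 6-week sham array 3, at 0.69 and -0.21 on the 6-week DMM arrays 3 and 4, and between -1.41 and -0.16 on the other 13. The junction probe printed above, A_52_P622418, was at -0.68, -1.15 and -2.18 on the 3 arrays and at -2.75 or below on the others. The probe A_55_P2088375, which shares 13 bases with it, was at -0.94, -1.62 and -2.79 on the 3 arrays and at -4.88 or below on the others. So the brightest probe differed far less between arrays than the other 2. Of these, A_55_P2088375 was well above background on only 5 arrays, all at 6 weeks. At 6 weeks compared with 1 week the 3 Tnnt3 probes were higher by 0.70 ± 0.28, 1.29 ± 0.69 and 2.49 ± 0.74. The last is no measured size, since that probe passed the filter through 6-week arrays only. None of the 3 probes passed in the fit over all probes, in which 360 of 43268 did (0.832%).

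Myl1 repeated this. The brightest probe, A_55_P2499158, was at 0.53, 0.74 and 0.21 on the 3 arrays, within the upper part of its range. The probe A_51_P416858 was at 0.09, -0.46 and -1.27 there and at -1.94 or below on the other 13. Its 6-week difference was 0.92 ± 0.77 with all arrays and -0.44 without the 3, so these arrays set its direction, whereas the brightest probe went from 0.82 ± 0.26 to 0.76. The Myh4 probe A_55_P2744675, whose sequence is printed above, was at -2.85, -2.99 and -4.95 on the 3 arrays and at -5.28 or below on the rest. It was well above background on only 2 arrays and was not tested. The second Mylpf probe was 1.08 ± 0.29 higher at 6 weeks (limma adjusted p = 0.0794 over all probes), next to 1.16 ± 0.26 (0.0485) for the first. For Tpm1, Tpm2 and Ttn, probes of 1 gene differed in sign between 6 weeks and 1 week: from -0.37 to 0.04 for Tpm1, from -0.12 to 0.19 for Tpm2 and from -0.30 to 0.30 for Ttn. No probe of these 3 genes passed.

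The promoters of Myh4, Tnnc2 and Mylpf are shown for the following reasons. The first 2 genes, by 1 of the Myh4 probes, were high on the same 3 arrays. Mylpf was called higher at 6 weeks than at 1 week, a call lost in 12 of 16 fits with 1 array left out. Each promoter is the 250 bases before the transcription start, read on the gene's strand, from RefSeq on GRCm38.p6. Capitals mark the E box CANNTG, which the myogenic regulators bind, and TATAAA, each searched on both strands.
Myh4: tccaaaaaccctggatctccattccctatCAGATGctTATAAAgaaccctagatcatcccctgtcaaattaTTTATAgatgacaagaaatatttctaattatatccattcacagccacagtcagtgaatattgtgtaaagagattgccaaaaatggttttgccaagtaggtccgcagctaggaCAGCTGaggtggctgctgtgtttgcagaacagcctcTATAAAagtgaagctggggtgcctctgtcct
Tnnc2: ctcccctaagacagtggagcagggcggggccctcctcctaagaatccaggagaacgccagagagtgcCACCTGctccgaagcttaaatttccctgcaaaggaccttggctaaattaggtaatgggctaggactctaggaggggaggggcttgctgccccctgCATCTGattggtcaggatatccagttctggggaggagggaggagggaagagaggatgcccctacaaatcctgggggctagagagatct
Mylpf: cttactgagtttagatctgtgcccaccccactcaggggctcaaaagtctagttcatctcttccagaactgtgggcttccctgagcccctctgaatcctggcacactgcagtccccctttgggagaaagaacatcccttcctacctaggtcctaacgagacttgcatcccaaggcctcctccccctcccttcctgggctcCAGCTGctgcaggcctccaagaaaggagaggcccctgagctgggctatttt
They lie at chr11:67237562-67237811 (plus strand), chr2:164779735-164779984 (minus strand) and chr7:127211358-127211607 (plus strand). Myh4 has 2 E boxes and 3 TATAAA matches, Tnnc2 2 E boxes and Mylpf 1. Of 33 members, 27 had a promoter in the table, and 24 of these 27 held CANNTG, beside 66.2% of all 32851 promoters. TATAAA was found in 7 of 27 members and 12.4% of all promoters, and the MEF2 palindrome in 2 of 27 and 3.2%. Members were counted by gene, with a match in any promoter listed for it, and the background by single promoter. The shares are therefore not quite alike. A match describes letters and not a bound site.

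In the lists of other sarcomere, excitation, energy and myogenic genes, no gene passed the threshold in limma in any of the 5 comparisons. At 6 weeks compared with 1 week, 15 of 22 other sarcomere genes were higher (median 0.25), 9 of 19 excitation and calcium genes (median -0.04), 8 of 14 energy genes (median 0.09) and 6 of 9 myogenic genes (median 0.24). The smallest p-values were those of Pfkm, muscle phosphofructokinase (0.48 ± 0.14), Myom1, an M band protein (0.63 ± 0.19), and Cacna1s, the voltage sensor of the muscle membrane (0.47 ± 0.14). Titin's cap, Tcap, was at -1.82, -1.91 and -3.10 on the 3 arrays that stand apart and at -3.74 or below on the others. The myogenic regulators Myod1, Myog and Myf5 were well above background on 7, 1 and 1 of the 16 arrays, and embryonic Myh3 and Pax3 on 0. These were the dim end of the list: per array, 7 to 10 of its 14 genes were well above background.

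Between DMM and sham at 1 week, the genes of these lists with the smallest p were Art1 (1.44 ± 0.60), Cox8b (1.78 ± 0.79) and Hrc (0.70 ± 0.37). At 6 weeks they were Cox6a2 (0.70 ± 0.26), Sgca (0.88 ± 0.46) and Tnni3 (0.63 ± 0.35). For the difference between the times they were Cox6a2 (1.05 ± 0.37), Cox8b (-2.30 ± 1.12) and Tnnt2 (-1.37 ± 0.72), and for the average Tnni3 (0.58 ± 0.25), Sgca (0.71 ± 0.32) and Hrc (0.46 ± 0.26). All of them had a limma adjusted p of at least 0.9995. Cox8b, a subunit of respiratory complex IV found in muscle and brown fat, was at -1.11 on the 1-week DMM array 1. That array also held the summed adipocyte level of 93.9, while the highest such sum was 140 on the 6-week sham array 3. The part of fat tissue in the Cox8b differences was not tested.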

How the data were processed

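The authors deposited 1-colour scanner files in which Agilent Feature Extraction 10.7.3.1 gives each spot a background-corrected intensity (gProcessedSignal) and a background flag, per the file headers. It had replaced 14.3% of values near background by surrogates. A deposited table of 50815 probes was read as log2, made with limma 3.20.9 per the submitters' processing notes. Its centring is not given in the sources used here, and it served only as an alternative.

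Spots of a probe were averaged, log2 intensities were centred on the array's 75th percentile, and genes with several probes were represented by the brightest with a value on every array. R 4.3.3 with limma 3.58.1 fitted 1 mean per group to all 16 arrays (12 residual and 3.01 prior degrees of freedom), with 2-sided p-values adjusted by Benjamini-Hochberg over all 28250 genes. Probe names came from accessions (32994), current symbols (10224), older symbols (520) or the file (12867). The members and lists were chosen with earlier results of these data known. Named per comparison are members past the threshold and the 5 with the smallest p. Levels per array are given for the 8 widest-ranging members and those whose probes differ in sign between the times. The fit was tested on simulated data. Replicate numbers follow the order of the records.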

Additional observations from a re-analysis of the deposited data

Results flagged for a closer look

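Dixon's test compared the highest and the lowest array of each group of 4 for the 30 tested members, and marked 7 of 120 groups (5.83%). Chance marks about 1 in 20. Casq1, the calcium store protein, was marked in 2 groups, at 1.28 on the 1-week DMM array 2 and at 2.21 on the 6-week sham array 2. Myh4 (probe A_51_P338072) was marked high at 1.16 on the 6-week sham array 3 and low at -7.79 on the 1-week DMM array 1, the second value being not above background. Myl3, a slow light chain, stood out at -3.40 on the 1-week DMM array 1. Tnni2 was marked low at 0.0934 on the same array. Titin (Ttn) stood out at -1.62 on the 1-week DMM array 2. Of the 7 marks, 5 were high and 2 low.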

How the results depend on the processing

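Alternatives were normexp background, quantile normalization, the deposited table, no filter on dim probes, a filter of 8 arrays, the slide as a block, the mean of all probes, each array left out in turn and, added after seeing the data, probes with a RefSeq accession, the 3 arrays left out together, and Myh4 by its brightest probe (15 arrays). DMM and sham at 1 time were also fitted on their own arrays alone. Between DMM and sham no member passed under any of them, in any of the 4 comparisons. For 6 weeks against 1 week, where 2 members passed, the count was 1 with normexp (Mylpf), 1 with quantile normalization (Mypn), 0 without a filter, 1 with the filter of 8 arrays (Mylpf), 1 with the mean of probes (Mypn) and 0 without the 3 arrays. Leaving out 1 array gave 0 to 5 members. Mylpf was called in 4 of 16 such fits (without 6-week sham 2, 1-week sham 3, 1-week DMM 3 or 6-week DMM 3) with an adjusted p from 0.0199 to 0.126 over the 16. Mypn was called in 4 (without 6-week sham 2, 1-week sham 1, 1-week DMM 3 or 6-week DMM 3), with a p from 0.0246 to 0.115. Their differences stayed between 1.03 and 1.34 and between 1.42 and 1.85. With normexp the difference of Mypn was 0.39, so its size depends on the background. Calls over all genes in this comparison were 247, and 427, 198, 330, 0, 326, 645, 342, 247, 138 and 247 in the order of the alternatives above, leaving out 1 array apart (0 to 1502). Medians over the members moved by less than the spread between arrays of a group (0.365). That spread is wider than any of these medians in the main fit, so the check says little about stability. For 6 weeks against 1 week the median of 0.26 became 0.14 to 0.29, and 0.21 to 0.44 with 1 array left out. Directions turned for 3 genes. Myh4 by its brightest probe differed between DMM and sham by -0.23 at 6 weeks and -0.0637 averaged. Ttn at 6 weeks was 0.13 with the RefSeq probe, which is another probe. The difference between times of Tpm2 was -0.058 with the mean of probes. Between 6 weeks and 1 week Myh4 kept its direction with its brightest probe, at 0.17. No scaling moved the median of all genes by over 0.1. No paired analysis was possible because each mouse had the same surgery on both knees and the labels link no sham mouse with a DMM mouse. Levels of members not above background are no measured sizes.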
